A study of Homo sapiens with 24 samples.

Results

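Transcripts of inflammatory chemokines and cytokines were followed in human lung and liver cancer cells exposed to 3 herbal extracts. The genes were listed by symbol: CXCL1, CXCL2, CXCL3, CXCL5 and CXCL8, which attract neutrophils, CCL2 and CCL20, which attract monocytes and memory lymphocytes, and the cytokines IL6, LIF and IL1A. Of these 10 genes, 8 had a row among the 14585 genes of the count table, and IL6 and IL1A were not analysed here. A gene was described in a cell line where its mean over the 12 libraries of that line was above 5 counts, which held for all 8 genes in A549 and for 7 in Huh7. The genes nearest to this limit were CCL20 in A549, with a mean of 12.92 counts, and CXCL3 in Huh7, with 18.92, and the gene left out was CCL2 in Huh7, with 0 counts in every library.

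A549 is a lung carcinoma line and Huh7 a hepatocellular carcinoma line, both labelled wild type, and each was grown as control or with an extract of Pulsatilla chinensis (a root), Bupleurum chinense (a root) or Polyporus umbellatus (a fungus). The paper that reported the data describes A549 as wild type for p53 and Huh7 as mutant for it. Each of the 8 groups had 3 replicates, which gave 24 RNA-seq libraries. The extracts were dried from ethanol and dissolved in DMSO, and the dose and time given to the sequenced cells, and whether the controls received DMSO, are not stated in the sources used here. Each line stands for 1 tumour, and nothing in the labels says whether replicates were separate cultures, so the p-values measure only the spread between these samples.

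The A549 libraries summed to between 6803704 and 17175624 estimated counts, and the Huh7 libraries to between 7182444 and 24345541. Depth went with treatment in Huh7. Controls had 16455709 to 24345541 counts and P. chinensis libraries 13259204 to 24340250. B. chinense libraries had 9526159 to 11546100 and P. umbellatus libraries 7182444 to 10328734. The part of depth in the number of calls per herb was not tested. The labels of the lines fitted the sums of their markers. Of 8 lung line markers 6 had a row. They summed to 9070 to 12000 CPM (counts scaled for library size) in A549 and to 9.72 to 19.3 CPM in Huh7. NKX2-1 and SFTPC had no row, and most of the A549 sum came from AKR1B10, KRT81, ALDH3A1 and KRT7. The 9 hepatocyte markers summed to 47.6 to 130 CPM in A549 and to 13900 to 24100 CPM in Huh7. The surfactant gene SFTPB, a marker of mature alveolar cells, was at 0.99 to 2.73 CPM in A549 and at 2.13 to 5.27 CPM in Huh7. This lung line marker was thus not higher in A549, unlike the sum. Replicate 2 of the Huh7 P. umbellatus group stood apart, since its counts differed from those of replicates 1 and 3 by 13.28 and 17.64 times sampling noise, against 2.74 to 5.36 times for the other pairs of replicates. For P. umbellatus against control in Huh7, the values of CXCL8, CXCL5 and CXCL2 are also given without this library. Most other results that use it are given with it alone, or as a range over leaving out each replicate.

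Chemokines are small secreted proteins that draw leukocytes along a concentration gradient. The CXC chemokines that carry a Glu-Leu-Arg (ELR) motif bind the receptors CXCR1 and CXCR2 of neutrophils, and CXCL1, CXCL2, CXCL3, CXCL5 and CXCL8 are of this kind. Their genes, like those of CCL2, CCL20 and LIF, are classical targets of NF-κB, the transcription factor family that tumour necrosis factor, interleukin-1 and many kinds of cell stress activate, and their mRNAs carry AU-rich elements that shorten their life. Tumour cells of epithelial origin often make them without any immune cell present.

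The 5 ELR chemokine genes lie together on chromosome 4 (GRCh38). CXCL8 spans chr4:73740519-73743716 on the plus strand, CXCL1 chr4:73869393-73871308 on the plus strand, CXCL5 chr4:73995642-73998677 on the minus strand, CXCL3 chr4:74036589-74038807 on the minus strand and CXCL2 chr4:74097040-74099196 on the minus strand. CCL2 lies at chr17:34255274-34257208 and CCL20 at chr2:227805739-227817564, both on the plus strand, and LIF at chr22:30240453-30246759 on the minus strand. Exons of CXCL5 overlap a long noncoding gene on the other strand, and those of LIF overlap LIF-AS1 and LIF-AS2. The library kit keeps strand, but whether the counting used it is not stated in the sources used here, so reads of these partners could not be told apart from reads of CXCL5 and LIF.

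Promoter sequences are shown because the members are known targets of NF-κB. RefSeq windows on GRCh38.p14, from 250 bases before to 50 bases after the transcription start, were found for 6 of the 8 genes. The lines below give, 5′ to 3′ on the strand of the gene, 150 bases of each window (120 before to 30 after the start), with matches to an NF-κB-type motif in capitals. The stretch of CXCL1 is chr4:73869273-73869422 (plus strand), of CXCL2 chr4:74099166-74099315 (minus), of CXCL3 chr4:74038660-74038809 (minus), of CXCL5 chr4:73998648-73998797 (minus), of CXCL8 chr4:73740449-73740598 (plus) and of CCL20 chr2:227813722-227813871 (plus).
CXCL1: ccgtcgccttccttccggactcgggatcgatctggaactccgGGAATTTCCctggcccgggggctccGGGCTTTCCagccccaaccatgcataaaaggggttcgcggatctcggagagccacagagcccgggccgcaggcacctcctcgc
CXCL2: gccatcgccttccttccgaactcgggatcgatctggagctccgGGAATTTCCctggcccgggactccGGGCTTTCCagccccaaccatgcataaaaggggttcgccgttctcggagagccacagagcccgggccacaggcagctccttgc
CXCL3: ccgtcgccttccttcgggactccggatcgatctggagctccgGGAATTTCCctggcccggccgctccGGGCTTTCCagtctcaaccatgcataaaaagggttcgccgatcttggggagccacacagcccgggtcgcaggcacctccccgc
CXCL5: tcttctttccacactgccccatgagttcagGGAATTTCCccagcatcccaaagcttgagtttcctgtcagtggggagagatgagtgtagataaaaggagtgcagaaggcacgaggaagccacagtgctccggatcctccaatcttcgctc
CXCL8: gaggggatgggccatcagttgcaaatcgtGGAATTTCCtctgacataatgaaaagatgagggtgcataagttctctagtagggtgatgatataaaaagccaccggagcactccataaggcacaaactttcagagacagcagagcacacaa
CCL20: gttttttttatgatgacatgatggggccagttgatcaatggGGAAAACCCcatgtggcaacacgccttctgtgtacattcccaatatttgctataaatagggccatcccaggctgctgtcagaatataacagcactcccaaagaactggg

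All 6 windows held the NF-κB-type motif GGNNTTTCC, searched on both strands, against 6.3% of 35116 promoters of the same length and 6.7% of the 17193 promoters of genes in the count table. The windows of CXCL1, CXCL2 and CXCL3 held 2 matches each, the distal one read as GGAATTTCC and starting at -78, -77 and -78 from the transcription start, the proximal one read as GGGCTTTCC and starting at -53 in all 3. CXCL5 had GGAATTTCC at -90 and CXCL8 at -91, and the match of CCL20 at -79 was on the other strand. The AP-1 motif TGANTCA, which reads alike on both strands and was counted once, was found in 1 of the 6 windows, that of CXCL8 at -137, against 7.7% of all promoters. The letters TATAAA were found in CXCL8 at -31 and CCL20 at -29, against 11.5% of all promoters, and no match overlapped another. These matches describe letters, not binding. The genes are known targets of NF-κB, and the windows of CXCL1, CXCL2 and CXCL3 are alike. The share of windows with a match is therefore no test of enrichment.

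**Figure D1:**
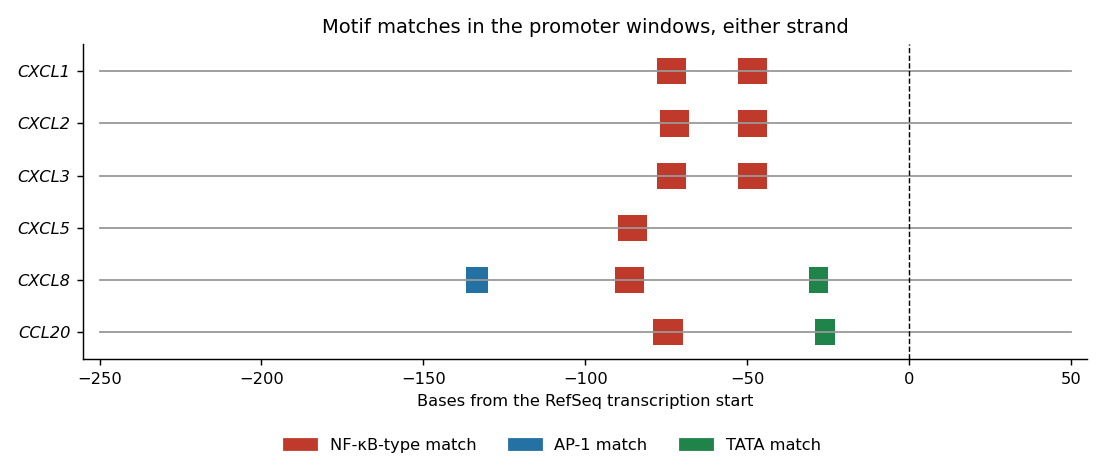
Matches to the NF-κB-type, AP-1 and TATA motifs in the RefSeq promoter windows of 6 genes, by distance in bases from the transcription start (dashed line). Each window holds at least 1 NF-κB-type match, starting between -91 and -53, and CXCL1, CXCL2 and CXCL3 hold 2 each.

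The windows of CXCL1, CXCL2 and CXCL3 were also the most alike of the 15 pairs. CXCL1 and CXCL3 shared 84.7% of the 300 bases, CXCL2 and CXCL3 78.3%, and CXCL1 and CXCL2 77.0%, whereas the other pairs shared 48.0% to 58.0%. The likeness reaches into the mRNAs: of the stretches of 31 bases in their coding transcripts, 14.4% in CXCL1, 21.7% in CXCL2 and 9.6% in CXCL3 occurred in another of the 3 genes, and none did in the other 5 genes. Because kallisto divides reads that fit several transcripts, the split between CXCL1, CXCL2 and CXCL3 is less certain than their level as a group.

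The control cells of the lines differed in the levels of these transcripts. Per kilobase of transcript, A549 controls had CXCL5 highest at 75.7 ± 2.45 CPM per kb (mean ± SD, n = 3 here and below), then LIF at 36.7 ± 2.08, CCL2 at 25.4 ± 1.33, CXCL2 at 8.10 ± 1.09 and CXCL1 at 3.05 ± 0.585. CXCL3 at 2.17 ± 0.0788, CCL20 at 1.64 ± 0.536 and CXCL8 at 0.67 ± 0.529 CPM per kb followed, and the libraries of CCL20 overlapped those of both its neighbours in this order. In Huh7 controls CCL20 led at 93.7 ± 2.65 CPM per kb, followed by CXCL5 at 17.5 ± 1.12 and CXCL8 at 15.7 ± 1.24, whose libraries overlapped. CXCL1 at 2.85 ± 0.908 and CXCL2 at 2.10 ± 0.464 overlapped too, as did LIF at 0.832 ± 0.102 and CXCL3 at 0.537 ± 0.267 CPM per kb.

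**Figure D2:**
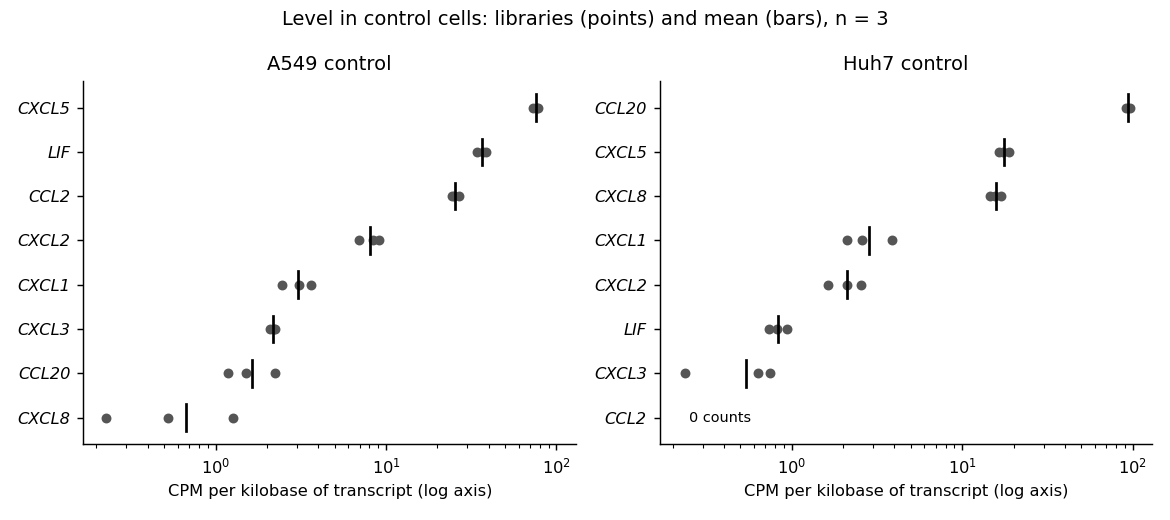
CPM per kilobase of transcript (log axis) of each gene in the 3 control libraries of A549 (left) and Huh7 (right), points for libraries and bars for means, genes in order of their mean. CXCL5 leads in A549 at 75.7 and CCL20 leads in Huh7 at 93.7 CPM per kb, and CCL2 had 0 counts in Huh7.

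Between the control groups, 7 of the 8 genes differed at an adjusted p below 0.05 (edgeR's quasi-likelihood test, Benjamini-Hochberg adjusted over all genes tested), where 70.7% of all 14584 genes did. LIF, a cytokine of the interleukin-6 family, was higher in A549 by 5.47 on the log2 scale (adjusted p = 6.12e-20). CXCL5, CXCL3 and CXCL2 were higher in A549 by 2.12, 1.99 and 1.93. CCL20, the only known chemokine ligand of CCR6, was lower in A549 (log2 difference -5.80, SE 0.241), and CXCL8, interleukin-8, had a log2 difference of -4.48 (SE 0.305), which was -5.29 without A549 control replicate 2. CXCL1 did not pass the test, with a log2 difference of 0.12 (95% interval -0.36 to 0.59, adjusted p = 0.658). CCL2 had 0 counts in all 12 Huh7 libraries, where a count of 0 allows up to 3 counts per library, or 0.116 to 0.417 CPM over those libraries. Against that floor, averaged over the Huh7 controls at 0.155 CPM, A549 controls at 18.8 ± 0.989 CPM were at least 122-fold higher. This floor covers counting error only.

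In A549 cells, P. chinensis raised 6 of the 8 transcripts and lowered none, where 15.8% of all 13633 genes rose and 17.1% fell. The median log2 fold change over the 8 was 0.90, beside 0.01 over all genes. B. chinense raised 3 and lowered 1 (13.1% of all genes rose and 15.0% fell), with a median of 0.31, and P. umbellatus raised 4 and lowered none (13.4% of all genes rose and 14.8% fell), with a median of 0.43. CXCL8, CCL2 and LIF were higher with every herb. In bulk RNA a rise in every cell and a rise in some of the cells cannot be told apart.

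CXCL8 had the largest change. A549 control replicates 1 to 3 had 0.38, 2.07 and 0.868 CPM, which rest on 3, 21 and 9 counts. The P. chinensis libraries had 9.72, 8.99 and 13 CPM, those of B. chinense 3.86, 4 and 2.78, and those of P. umbellatus 4.38, 2.67 and 4.96. Every treated library lay above every control. The log2 fold change after P. chinensis was 3.20 (9.19-fold, SE 0.413, 95% interval 2.31 to 4.09, adjusted p = 3.32e-05). B. chinense gave 1.64 (SE 0.435, adjusted p = 0.0113) and P. umbellatus 1.80 (SE 0.424, adjusted p = 0.0054). Control replicate 2 carried most of the control counts of CXCL8, and without it the 3 values were 4, 2.44 and 2.60.

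CXCL1 and CXCL2, close relatives that also signal through CXCR2, rose in A549 with P. chinensis. CXCL1 went from 2.91, 3.64 and 4.24 CPM in controls to 8.20, 6.99 and 8.70, a log2 fold change of 1.13 (SE 0.224, adjusted p = 0.00129). CXCL2 went from 10.3, 9.34 and 7.71 CPM to 16.7, 15.8 and 20.7, a log2 fold change of 0.97 (SE 0.202, adjusted p = 0.00192). The groups did not overlap for either gene. With B. chinense the log2 values of CXCL1 and CXCL2 were 0.23 (95% interval -0.27 to 0.73) and 0.29 (-0.15 to 0.74), and with P. umbellatus 0.49 (0 to 0.97) and 0.16 (-0.28 to 0.60), none past the threshold. CXCL3, with counts of 17 to 65 per library, gave 0.84, 0.66 and 0.65 with the 3 herbs (adjusted p = 0.114, 0.239 and 0.24). With P. chinensis its value was 1.13 without replicate 2 of that herb (adjusted p = 0.0391) and 0.48 without replicate 3 (adjusted p = 0.437).

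CXCL5, the most abundant of the group in A549, moved by small amounts with small errors. Controls had 190, 189 and 178 CPM, P. chinensis 225, 244 and 257, B. chinense 163, 176 and 148, and P. umbellatus 227, 238 and 232. The libraries of P. chinensis and P. umbellatus were all above the controls and those of B. chinense all below. CXCL5 rose by 0.38 on the log2 scale with P. chinensis (SE 0.0626, adjusted p = 0.000275) and by 0.32 with P. umbellatus (SE 0.0625, adjusted p = 0.00135). With B. chinense it fell by 0.19 (SE 0.0638, adjusted p = 0.0377). That fall missed the threshold under 5 of 8 other settings (adjusted p up to 0.127) and without any 1 of 5 libraries: P. chinensis replicate 2, B. chinense replicate 1 or 3, or control replicate 1 or 2 (adjusted p = 0.0537 to 0.147).

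CCL2, which attracts monocytes through CCR2, rose with all 3 herbs in A549. Its controls had 20.3, 18.6 and 18 CPM. P. chinensis libraries had 38.4, 35.1 and 40.5 CPM, B. chinense 26.9, 38.7 and 26.3, and P. umbellatus 42.2, 32.5 and 30.6. All 9 treated libraries exceeded the controls, and the log2 fold changes were 1.01 (SE 0.156, adjusted p = 0.000172), 0.70 (SE 0.158, adjusted p = 0.0042) and 0.90 (SE 0.155, adjusted p = 0.000537). LIF, which signals through LIFR and IL6ST, rose by nearly the same amount with each herb, from 136, 144 and 149 CPM in controls to between 172 and 193 CPM in the 9 treated libraries. The log2 values were 0.33, 0.33 and 0.38, each with an SE near 0.053 (adjusted p = 0.000234, 0.000316 and 9.49e-05). CCL20 stayed at 0.438 to 2.41 CPM in all A549 libraries, with log2 values of 0.29, -0.69 and -0.18 (adjusted p = 0.675, 0.341 and 0.818). At 3 to 26 counts per library its 95% intervals were wide. They ran from -0.68 to 1.26, from -1.74 to 0.37 and from -1.17 to 0.80, and changes within them were not resolved at this depth.

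**Figure D3:**
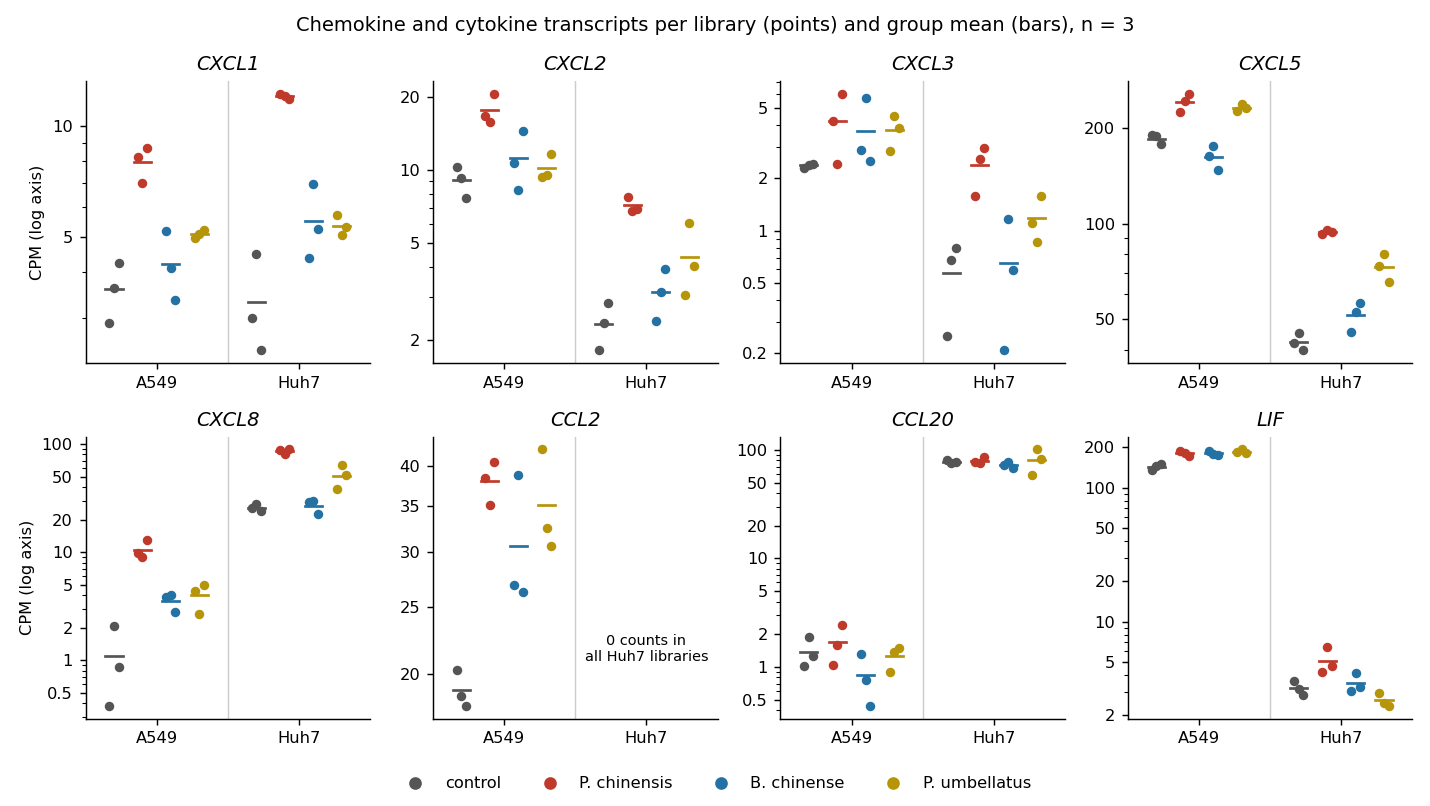
CPM (log axis, own scale in each panel) of 8 chemokine and cytokine transcripts in each library (points) with group means (bars), 3 libraries per group, A549 on the left and Huh7 on the right of each panel. All P. chinensis libraries of CXCL1, CXCL2, CXCL5 and CXCL8 lie above the controls in both lines, and CCL20 of Huh7 does not separate the groups.

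Huh7 cells responded to P. chinensis with 6 of 7 transcripts higher and none lower, where 10.5% of all 13875 genes rose and 10.5% fell. Their median log2 fold change was 1.62, beside 0.01 over all genes. With P. umbellatus 4 of 7 rose and none fell (19.3% of all genes rose and 17.8% fell), with a median of 0.78. With B. chinense no transcript passed the test in edgeR, where 0.519% of all genes rose and 0.757% fell. For that herb CXCL1 and CXCL5 had an unadjusted p below 0.05 among the 7, DESeq2 called 0 and limma's voom called these 2 (adjusted p = 0.0384 and 0.0339).

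CXCL8 and CXCL5, the abundant ELR chemokines of Huh7, separated the herbs by level. CXCL8 had 25.5, 27.7 and 23.8 CPM in controls. The P. chinensis libraries had 87.9, 80.7 and 89.1 CPM, those of B. chinense 29.0, 29.4 and 22.4 and those of P. umbellatus 38.5, 63.5 and 51.2. The log2 fold change of CXCL8 after P. chinensis was 1.74 (SE 0.156, adjusted p = 1.19e-05), after B. chinense 0.07 (95% interval -0.28 to 0.42) and after P. umbellatus 0.99 (SE 0.159, adjusted p = 0.00134; 0.81 without P. umbellatus replicate 2). CXCL5 had 42.0, 45.1 and 39.8 CPM in controls, 92.9, 95.6 and 94.1 in P. chinensis libraries, 45.6, 52.6 and 56.1 in B. chinense libraries and 73.2, 80.2 and 65.3 in P. umbellatus libraries. In both genes the P. chinensis libraries were highest and the P. umbellatus libraries next, with no overlap between these groups or with the controls. The log2 fold change of CXCL5 was 1.15 (SE 0.0948, adjusted p = 6.01e-06), 0.28 (95% interval 0.07 to 0.49, adjusted p = 0.219) and 0.78 (SE 0.0964, adjusted p = 0.000477; 0.71 without P. umbellatus replicate 2).

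CXCL1, CXCL2 and CXCL3 all rose in Huh7 with P. chinensis. CXCL1 went from 3.01, 4.50 and 2.46 CPM to 12.2, 12 and 11.8, a log2 fold change of 1.87 (SE 0.221, adjusted p = 0.000104). CXCL2 went from 1.81, 2.34 and 2.84 CPM to 7.79, 6.79 and 6.96, a change of 1.62 (SE 0.26, adjusted p = 0.000929). The treated libraries lay well above the controls for both. CXCL3 went from 0.251, 0.678 and 0.792 CPM (5 to 19 counts) to 1.57, 2.55 and 2.96, a change of 2 (SE 0.498, adjusted p = 0.0134) that was 1.82 without P. chinensis replicate 3 and 1.65 without control replicate 1 (adjusted p = 0.0513 and 0.0564).

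With P. umbellatus the Huh7 values of CXCL1 were 5.74, 5.04 and 5.30 CPM and those of CXCL2 3.05, 6.05 and 4.02 CPM. All lay above the controls, by 0.70 (SE 0.235, adjusted p = 0.0345) and 0.89 (SE 0.277, adjusted p = 0.0259) on the log2 scale, and both calls were weak. The call of CXCL2 was lost without P. umbellatus replicate 2 (0.60, adjusted p = 0.106), without control replicate 1 (0.74, adjusted p = 0.09) and without control replicate 2 (0.86, adjusted p = 0.0723). The call of CXCL1 was lost without any 1 of 7 libraries, P. chinensis replicate 1 or 2, B. chinense replicate 3, control replicate 1 or 3, or P. umbellatus replicate 1 or 3, with log2 values of 0.52 to 0.72 and adjusted p up to 0.124. CXCL3 gave 1.05 with P. umbellatus (95% interval -0.16 to 2.25, adjusted p = 0.155). With B. chinense the log2 values of CXCL1, CXCL2 and CXCL3 were 0.75 (adjusted p = 0.169), 0.44 (0.596) and 0.21 (0.94).

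LIF and CCL20 gave 1 call between them in Huh7, LIF with P. chinensis. LIF was low, with 3.61, 3.14 and 2.84 CPM in controls and 4.17, 6.49 and 4.67 with P. chinensis, a log2 fold change of 0.68 (SE 0.218, adjusted p = 0.0436). This call was lost without any 1 of 7 libraries (P. chinensis replicate 2 or 3, B. chinense replicate 1 or 3, and each control replicate), with log2 values of 0.45 to 0.78 and adjusted p up to 0.227. With B. chinense and P. umbellatus LIF gave 0.12 and -0.31 (adjusted p = 0.909 and 0.336). CCL20, the most abundant member in Huh7, had 79.9, 75.5 and 77.4 CPM in controls, 77.4, 75.0 and 85.8 after P. chinensis, 72.1, 77.3 and 68.0 after B. chinense and 58.5, 101 and 82.7 after P. umbellatus. Its groups overlapped throughout, and its log2 values were 0.03 (95% interval -0.28 to 0.34), -0.10 (-0.42 to 0.22) and 0.05 (-0.26 to 0.37). Each interval lay within 0.42 of 0, beside changes of 1.15 to 2 for the ELR chemokines with P. chinensis in Huh7. The promoter window of CCL20 held an NF-κB-type match, as did those of the ELR genes, and the part of these matches in the changes was not tested.

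**Figure D4:**
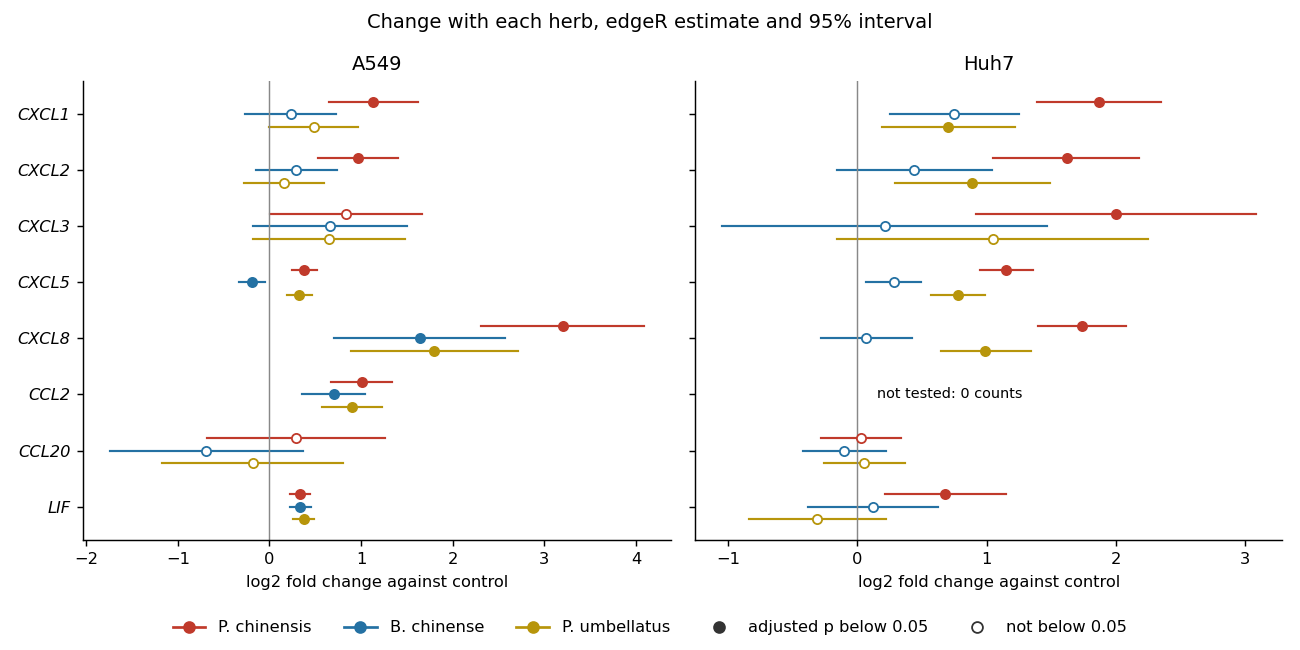
Log2 fold change of each gene against the control of its line with each herb, with 95% intervals from the edgeR fit, A549 on the left and Huh7 on the right; filled points have an adjusted p below 0.05. CXCL8 in A549 reaches 3.20 with P. chinensis, and CCL20 of Huh7 stays between -0.10 and 0.05.

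The herbs were then compared with each other, since a call with 1 herb and not with another shows no difference by itself. In Huh7, P. chinensis exceeded B. chinense in 4 of 7 transcripts (3.89% of all genes were higher): CXCL8 by 1.68 on the log2 scale (adjusted p = 8.09e-05), CXCL2 by 1.18 (0.0174), CXCL1 by 1.12 (0.0089) and CXCL5 by 0.87 (0.000211). It exceeded P. umbellatus in 5 of 7, where 16.5% of all genes were higher: CXCL1 by 1.16 (adjusted p = 0.00248), LIF by 0.99 (0.00758), CXCL8 by 0.75 (0.00341), CXCL2 by 0.73 (0.0486) and CXCL5 by 0.37 (0.0102). The LIF difference missed the threshold with limma's voom (0.83, adjusted p = 0.091). B. chinense was below P. umbellatus in CXCL8, with a log2 difference of -0.92 (adjusted p = 0.00769), and in CXCL5, with -0.50 (0.00937), and 14.6% of all genes were lower there. Leaving out 1 replicate at a time, these values ranged over -1.09 to -0.75 and -0.57 to -0.39. CXCL3 gave 1.79 for P. chinensis against B. chinense (adjusted p = 0.0598). It passed the threshold without B. chinense replicate 2 or P. umbellatus replicate 2. The CXCL2 difference from P. umbellatus was lost without any 1 of 9 libraries (each P. chinensis or control replicate, B. chinense replicate 2, and P. umbellatus replicate 1 or 3, adjusted p up to 0.148) and that from B. chinense without any 1 of 5 (each P. chinensis replicate, and B. chinense replicate 1 or 2), and CXCL1 lost its difference from B. chinense without B. chinense replicate 1 (0.97, adjusted p = 0.0506).

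A549 showed fewer differences between herbs. P. chinensis exceeded B. chinense in CXCL5 alone at the threshold, by 0.57 (adjusted p = 0.00124), where 0.447% of all genes were higher. CXCL8 and CXCL1 gave 1.56 (95% interval 0.78 to 2.35, adjusted p = 0.0509) and 0.91 (0.43 to 1.39, adjusted p = 0.0603) in that comparison. P. chinensis exceeded P. umbellatus in CXCL2 by 0.81 (adjusted p = 0.0431), where 0.814% of all genes were higher, and CXCL8 gave 1.40 (0.64 to 2.17, adjusted p = 0.0501). The CXCL2 call was lost with the replicate number as a block (adjusted p = 0.0547) and without any 1 of 8 libraries: each P. chinensis or P. umbellatus replicate, B. chinense replicate 1 or control replicate 2 (0.68 to 0.91, adjusted p = 0.0571 to 0.202). B. chinense was below P. umbellatus in CXCL5, with a log2 difference of -0.51 (adjusted p = 0.004), where 0.0293% of all genes, 4 in number, were lower. DESeq2 called CXCL8 in both (adjusted p = 0.00213 and 0.00411), as edgeR did without control replicate 1 or 2. LIF passed the test for no pair of herbs, and its 3 pairwise differences were 0, -0.05 and -0.04, with 95% intervals between -0.16 and 0.11. For CCL2 these differences were 0.31, 0.10 and -0.20 (95% intervals -0.02 to 0.63, -0.21 to 0.42 and -0.52 to 0.12).

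Whether a gene answered a herb differently in the lines was tested as an interaction over all 24 libraries and 12924 genes. For P. chinensis, 2 of 7 genes differed, where 19.6% of all genes did. The rise of CXCL8 was larger in A549 by 1.5 on the log2 scale (SE 0.404, adjusted p = 0.0109; 2.30 without A549 control replicate 2), and that of CXCL5 was smaller there, with a difference of -0.72 (SE 0.111, adjusted p = 6.6e-05). For B. chinense the same 2 genes differed (11.6% of all genes): CXCL8 by 1.6 (SE 0.441, adjusted p = 0.0196) and CXCL5 by -0.44 (SE 0.114, adjusted p = 0.0143). This CXCL8 difference missed the threshold without A549 control replicate 1 or 3 or B. chinense replicate 1 or 2 (1.26 to 1.54, adjusted p up to 0.0725) and was 2.41 without A549 control replicate 2. For P. umbellatus, CXCL5 differed by -0.38 (SE 0.113, adjusted p = 0.0139) and LIF by 0.77 (SE 0.213, adjusted p = 0.00858), where 34.4% of all genes differed. The LIF difference missed the threshold with limma's voom (0.63, adjusted p = 0.21). CXCL8 gave 0.87 with P. umbellatus (95% interval -0.02 to 1.76, adjusted p = 0.123; 1.68 and 0.012 without A549 control replicate 2).

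**Figure D5:**
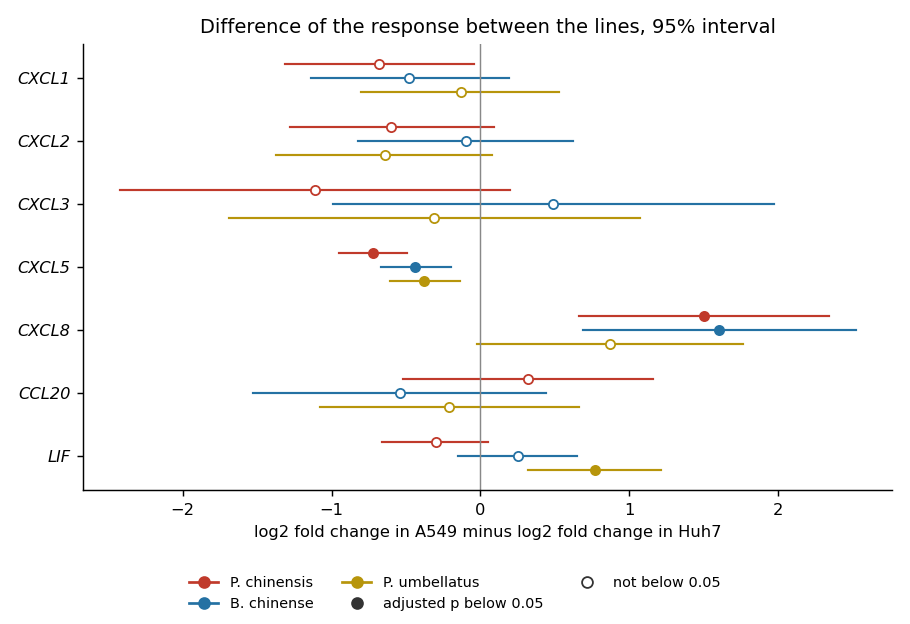
Difference between the lines in the log2 fold change with each herb (A549 minus Huh7), with 95% intervals from the edgeR fit over 24 libraries; filled points have an adjusted p below 0.05. CXCL5 lies below 0 with all 3 herbs (-0.72, -0.44 and -0.38), and CXCL8 lies above 0 with P. chinensis (1.5) and B. chinense (1.6).

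Despite its large fold change, CXCL8 with P. chinensis reached 10.6 ± 2.11 CPM in A549, below the 25.7 ± 1.99 CPM of untreated Huh7, each scaled within its own line. Summed over the 5 ELR chemokines per kilobase of transcript, A549 went from 90.3 ± 3.43 CPM per kb in controls to 132 ± 11.1 after P. chinensis, 85.9 ± 5.12 after B. chinense and 115 ± 3.17 after P. umbellatus. The Huh7 sum went from 38.4 ± 3.07 CPM per kb to 110 ± 2.5, 45.7 ± 3.45 and 70.6 ± 10.3, and the last group had 62.1, 82.1 and 67.6, highest in replicate 2. The makeup of the sum differed by line. CXCL5 held 84.4% ± 0.47 of it in A549 controls and 75.1% ± 2.8 after P. chinensis. In Huh7 CXCL5 held 45.2% ± 1.1 and CXCL8 40.7% ± 0.95 in controls, whereas after P. chinensis CXCL8 held the larger share, at 47.6% ± 1.5 against 35.2% ± 1.2 for CXCL5. These shares are given as a description, with no test.

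Genes of the same pathways were read from lists. Counts in these lists and in the marker lists below stand beside the shares of all genes called. In A549, 15.8% rose and 17.1% fell after P. chinensis, 13.1% and 15.0% after B. chinense, and 13.4% and 14.8% after P. umbellatus. The Huh7 shares, in the same order, were 10.5% and 10.5%, 0.519% and 0.757%, and 19.3% and 17.8%. Whether any list differed from these shares was not tested. Among receptors and signal transducers, A549 had 15 tested genes, with 3 higher and 1 lower after P. chinensis, 1 and 1 after B. chinense and 4 and 1 after P. umbellatus. STAT3, which carries the LIF signal to the nucleus, rose with each herb, by 0.86, 0.69 and 0.66 on the log2 scale, and IL1R1, the receptor of interleukin-1, fell, with log2 values of -0.50, -0.28 and -0.23. SOCS3, the feedback inhibitor of this signal, rose by 0.51 with P. chinensis and 0.46 with P. umbellatus, and LIFR, the LIF receptor, by 0.50 with P. chinensis. In Huh7 the 17 tested genes gave 6 higher and 1 lower, 0 and 1, and 7 and 4. SOCS3 rose there by 1.80 with P. chinensis and LIFR by 0.65 with P. umbellatus. CCR6, the receptor of CCL20, fell in Huh7 with each herb, from 70.1 CPM to 23.0, 36.5 and 43.9 CPM (log2 values -1.61, -0.94 and -0.68, adjusted p = 9.22e-05, 0.0304 and 0.015), while CCL20 gave no call.

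The NF-κB list held 20 subunits, inhibitors and other genes of the pathway, such as IKBKB, TRAF1 and BIRC3. In A549, 11 rose and 1 fell after P. chinensis and 9 rose and none fell after B. chinense. After P. umbellatus 9 rose and 1 fell. The median log2 fold changes of the 20 genes were 0.48, 0.16 and 0.21, beside 0.01, 0 and -0.01 over all genes. TNFAIP3, the A20 protein that ends NF-κB signalling, rose by 1.73 with P. chinensis and 1.01 with P. umbellatus, BIRC3 by 1.62 and 1.22, and NFKB2, the p100 precursor, by 1.08 with B. chinense and 1.27 with P. umbellatus. IKBKB rose by 1.54, 1.06 and 1.38 with the 3 herbs. In Huh7, 8 rose and none fell with P. chinensis, 3 rose and none fell with B. chinense, and 5 rose and 3 fell with P. umbellatus, with medians of 0.35, 0.05 and -0.25. BIRC3 rose by 2.92, 1.06 and 1.83 and TNFAIP3 by 2.01, 0.98 and 0.96 with the 3 herbs. NFKBID and NFKBIB, members of the IκB family, fell in Huh7 with P. umbellatus, with log2 values of -2.23 and -1.07.

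Transcripts of proteins that regulate the decay of AU-rich and other cytokine mRNAs were mostly lower, where called, in A549. Of 16 tested, 1 rose and 6 fell with each herb, where 17.1%, 15.0% and 14.8% of all genes fell. The gene that rose was ZFP36L1 with B. chinense (log2 value 0.36) and P. umbellatus (0.53). ZC3H12A, the Regnase-1 nuclease that degrades cytokine mRNAs, fell with log2 values of -0.80, -0.72 and -0.58, ZFP36L2 with -0.75, -0.42 and -0.65, and HNRNPD, the AUF1 protein, with -0.65, -0.56 and -0.54. In Huh7, 2 rose and 2 fell with P. chinensis, none passed the test with B. chinense, and 5 rose and 4 fell with P. umbellatus. ZC3H12A and ZFP36, the tristetraprolin that speeds the decay of chemokine mRNAs, rose there with P. chinensis by 1.14 and 1, and ZFP36L2 fell, with -0.59. Of the enzymes that process or release cytokines, 4 of 8 rose with each herb in A549, with CAPN2, a calpain subunit, higher by 0.68, 0.55 and 0.70. In Huh7, 3 of 9 rose with P. chinensis (CAPN2 by 1.19), none passed the test with B. chinense, and 4 rose and 2 fell with P. umbellatus, with FURIN at -0.73.

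Other chemokine ligands gave no call among 6 tested in A549 with any herb. In Huh7, 2 of 10 rose with P. chinensis: CXCL10, an interferon-induced chemokine, from 0.191 to 1.69 CPM (3.11 on the log2 scale, adjusted p = 0.00281), and CXCL6, a further ELR chemokine, from 1.93 to 3.70 CPM (0.93, adjusted p = 0.0233). None passed the test with B. chinense, and 3 fell with P. umbellatus, among them CX3CL1 with -0.91. Other cytokines gave 5 higher, 4 higher and 1 lower, and 4 higher of 14 in A549 with the 3 herbs. GDF15, a stress-induced cytokine, rose by 1.57, 1.56 and 1.37 and CSF1, the macrophage growth factor, by 0.56, 0.70 and 0.73, and IL11 fell with B. chinense, with -0.80. In Huh7, 5 of 15 rose with P. chinensis, including GDF15 by 1.44, IL32 by 1.36 and IL18 by 0.73, none passed the test with B. chinense, and MIF alone fell with P. umbellatus, with -0.91.

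Markers of cells that make chemokines themselves were checked beside these results. In A549, 7 of 12 leukocyte markers had a row and summed to 24.3 to 26.3 CPM in controls, 41.7 to 45.0 after P. chinensis, 33.1 to 43.5 after B. chinense and 33.8 to 37.4 after P. umbellatus. Of 4 tested, ITGAM rose with each herb and CD68 with P. chinensis and P. umbellatus, CD68 alone held 14.3 to 27.6 CPM, the pan-leukocyte gene PTPRC was at 0.942 to 2.21 CPM and CD3D at 0. The 8 fibroblast markers summed to 9.56 to 11.8 CPM in A549 controls and 12.9 to 15.3 with P. chinensis, with 1 of 4 tested called higher, and the endothelial PECAM1 went from 1.59 to 1.88 CPM in controls to 2.55 to 3.12 with P. chinensis without passing the test. Their part in the rise of the chemokines was not tested.

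The same leukocyte markers in Huh7 summed to 730 to 770 CPM in controls and to 392 to 546 CPM with the herbs, nearly all of it LYZ, which fell with each herb (log2 values -0.77, -0.59 and -0.73), while CD3D rose with P. chinensis. PTPRC was at 1.85 to 3.35 CPM. Of 8 fibroblast markers in Huh7, 2 rose with P. chinensis and 1 fell with P. umbellatus, where PECAM1 rose by 0.47. The markers of the lines moved too: in A549, 1 of 6 lung line markers rose with each herb and 3, 2 and 2 fell, and 2 of 4 hepatocyte markers fell with each. In Huh7, the 3 lung line markers tested gave 1 call, a rise with P. umbellatus, and of 9 hepatocyte markers 1 rose and 4, 1 and 5 fell. The part of these markers in the changes of the chemokines was not tested.

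The genes whose profile was most like that of the member of highest mean count were found by the root mean square difference of centred log2 CPM over the 12 libraries of a line. In A549, CXCL5 was nearest to CLMP (0.117), ARHGAP29 (0.121) and SMIM30 (0.132) among 10860 genes that averaged 50 counts or more, whose median difference from CXCL5 was 0.303. In Huh7, CCL20 was nearest to LSM5 (0.0604), RPL7 (0.064) and RPS3A (0.0724) among 11249 genes, with a median of 0.286. Around its own mean CCL20 varied by 0.179 over these libraries, more than its difference from these genes. They thus followed part of its changes between libraries, and why was not tested.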

How the data were processed

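The 24 libraries were made from total RNA with a stranded kit that removes ribosomal RNA, read as paired ends and, per the labels, quantified with kallisto on GRCh38.p13. The authors deposited whole-number estimated counts, without scaling for depth, for protein-coding genes that averaged above 5 counts. How transcript estimates were summed and rounded is not given in the sources used here.

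Counts were analysed in R 4.3.3 with edgeR 4.0.16. Within each line, genes with a mean count above 5 over its 12 libraries were scaled by TMM, and a single quasi-likelihood model held one mean for each group (prior count 0.125). Tests were two-sided, the Benjamini-Hochberg adjustment ran over all genes tested, and genes with an adjusted p below 0.05 were taken as called. Standard errors are the log2 fold change divided by the root of F. CPM values are TMM-scaled within a line, and levels and shares compared between genes were divided by the length of the canonical transcript. Interactions and the comparison of control lines used all 24 libraries. Alternatives were DESeq2 1.42.0, RLE and upper quartile scaling, no filter or a mean count of at least 50, limma 3.58.1 voom with sample quality weights, the 6 libraries of a comparison, the replicate number as a block and leaving out each replicate. The scripts were tested on simulated data. Replicate numbers did not pair the samples: the correlation of same-numbered libraries was over 0.1 in 0 of 18 pairs in each line.

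The members and the gene lists were chosen with earlier results of these data known. All members were named in every comparison. From each list at most the 4 called genes of largest change per herb and line were named, and marker lists are given mainly as counts. Gene positions come from the GENCODE annotation of GRCh38 and promoters from RefSeq. Motifs were searched with Python 3.11.15 on both strands. The precision of each value rests on the spread of 3 replicates, and genes with few counts have wide intervals.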

Additional observations from a re-analysis of the deposited data

Results flagged for a closer look

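The response of 3 genes to a herb differed between A549 and Huh7 cells by the interaction test of edgeR over all 24 libraries (Benjamini-Hochberg adjusted). Each herb gave 2 of 7 members. Of all 12924 genes, 34.4% differed in the P. umbellatus response, 19.6% in that to P. chinensis and 11.6% in that to B. chinense. The share of members was thus no larger than that of all genes for P. umbellatus. Whether members differed more often than other genes was not tested. The log2 fold change of CXCL8 was larger in A549 than in Huh7 by 1.5 with P. chinensis (adjusted p = 0.0109) and by 1.6 with B. chinense (adjusted p = 0.0196), and all 6 A549 libraries with these herbs were above the controls. The log2 fold change of CXCL5 was smaller in A549 than in Huh7 with all 3 herbs, with differences of -0.72 for P. chinensis (adjusted p = 6.6e-05), -0.44 for B. chinense (adjusted p = 0.0143) and -0.38 for P. umbellatus (adjusted p = 0.0139). With B. chinense every CXCL5 library was below the controls in A549 and above them in Huh7. The rise in Huh7 was not called (0.28, adjusted p = 0.219). The fall in A549 (-0.19, adjusted p = 0.0377) missed the threshold under 5 of 8 other settings. The response of LIF to P. umbellatus differed by 0.77 (adjusted p = 0.00858): its libraries were all above the controls in A549 and overlapped them in Huh7. With limma's voom and sample quality weights this LIF difference was 0.63 (adjusted p = 0.21).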

How the results depend on the processing

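The counts of members called against control were 6, 4 and 4 in A549 and 6, 0 and 4 in Huh7 for P. chinensis, B. chinense and P. umbellatus. They moved by more than 1.5 times under 3 settings: with a mean count of at least 50 (B. chinense in A549, 2), with voom (B. chinense in Huh7, 2) and with the 6 libraries alone (P. umbellatus in Huh7, 2). The count of 1 for P. chinensis against B. chinense in A549 was 3 with DESeq2 and 2 with a mean count of at least 50, voom or 6 libraries. The count of 1 against P. umbellatus was 2 with DESeq2, RLE, upper quartile, no filter, voom or 6 libraries and 0 with the replicate block. B. chinense against P. umbellatus in Huh7 gave 0 in place of 2 with 6 libraries. Of the 2 genes that differed between the lines, 1 was left with a mean count of at least 50 for P. chinensis and B. chinense, where CXCL8, whose mean in A549 was lower, was not fitted, and 1 with voom for P. umbellatus, where LIF missed the threshold. The cause was not tested elsewhere.

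Without 1 replicate at a time, the counts in A549 ranged over 6 to 7, 3 to 4 and 4 to 4 against control, 1 to 2 for P. chinensis against B. chinense, 0 to 2 against P. umbellatus and 1 to 1 for the last pair. In Huh7 they ranged over 4 to 6, 0 to 0 and 2 to 4 against control, 2 to 5, 4 to 5 and 2 to 3 between herbs. The differences between lines ranged over 2 to 3, 1 to 2 and 2 to 3, and the control lines stayed at 7. In Huh7, control replicate 1 alone lowered the P. umbellatus count by more than 1.5 times (to 2), as B. chinense replicate 1 did for P. chinensis against B. chinense (to 2).

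Direction turned in values that did not pass the test. CCL20 in Huh7 gave -0.23 with P. umbellatus under voom, and against it P. chinensis gave 0.03 with upper quartile scaling and with a mean count of at least 50 and 0.24 with voom, and B. chinense 0.12 with voom. CXCL1 gave -0.05 with voom for B. chinense against P. umbellatus in Huh7, and the line difference of CCL20 with P. umbellatus was 0.11 with voom. Leaving out 1 replicate turned CCL20 (A549 P. chinensis -0.06 to 0.57, P. umbellatus -0.35 to 0.10; Huh7 P. chinensis -0.03 to 0.05, P. umbellatus -0.13 to 0.24; P. chinensis against P. umbellatus -0.21 to 0.16, B. chinense against it -0.34 to 0.03; line differences -0.03 to 0.61 and -0.45 to 0.07). It also turned CXCL3 (A549 herb pairs -0.18 to 0.65, -0.17 to 0.47 and -0.46 to 0.22, Huh7 B. chinense -0.47 to 0.60), CXCL2 (A549 B. chinense against P. umbellatus -0.09 to 0.31, line difference with B. chinense -0.33 to 0.07), CXCL1 (Huh7 B. chinense against P. umbellatus -0.12 to 0.21, control lines -0.07 to 0.39) and LIF (Huh7 B. chinense -0.03 to 0.22).

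The replicate numbers did not pair the samples. As a block, the replicate number left the counts against control at 6, 4 and 4 in A549 and 5, 0 and 4 in Huh7. It ended the call of LIF with P. chinensis in Huh7 (0.66, adjusted p = 0.0611) and added CXCL3 for P. chinensis against B. chinense there (adjusted p = 0.0356). Depth limited CXCL3 in both lines, and CCL20 and the CXCL8 control level in A549, which rest on few counts.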
